A study of Homo sapiens with 9 samples.

Results

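Integrins are receptors of the plasma membrane, each made of an alpha and a beta subunit, that hold a cell to its matrix and couple that matrix through adaptor proteins to actin or to keratin filaments. In colon epithelium they bind the laminins and collagens of the basement membrane, and some of them release TGF-beta from its latent form. The subunits an epithelial cell can pair with each other are described here in DLD1, a human colorectal adenocarcinoma cell line: ITGA2, ITGA3, ITGA5, ITGA6, ITGAV, ITGB1, ITGB4, ITGB5, ITGB6 and ITGB8. These 10 genes, of 31033 gene names on the array, were taken by name, with earlier results of these data known, and every probe that carried one of these names was read, 20 probes in all. ITGB1 and ITGB8 had 4 probes each, ITGA2 also had 4, ITGAV had 2, and each of the other genes had 1.

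The 9 single-color Agilent arrays came from 3 cultures each of untreated DLD1 cells (Control), cells depleted of Lamin A and C with siRNA against LMNA (Lamin A/C Kd) and cells depleted of Lamin B2 with siRNA against LMNB2 (Lamin B2 Kd). Both siRNAs were used at 100 nM for 48 h. Controls were not transfected, and with no control siRNA on any array the effects of transfection and of a knockdown cannot be told apart. In bulk RNA, fewer cells that express a gene and less RNA per cell cannot be told apart either.

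A level below is the log2 of the background-subtracted intensity of a probe minus the median of its array, so a level of 0 is the median probe and a difference of 1 is a 2-fold change. A spot is well above background where the authors' software marked it so, and this held for between 65.6 and 74.1% of spots on an array. Lamin B2 Kd replicate 3 stood apart: it was on another slide than the other 8 arrays, its file held 3 significant digits, and its values had no multiplicative detrending. In Lamin A/C Kd, LMNA was at 4.84, 5.14 and 5.03 on its brighter probe against 8.79, 8.79 and 8.91 in controls (log2 fold change −3.83, adjusted p = 0.000225). Lamin B2 Kd had LMNB2 at 3.10, 3.48 and 3.15 against 5.44, 5.51 and 5.74 (log2 fold change −2.32, adjusted p = 0.000523). LMNA was at 8.83, 8.83 and 7.97 in Lamin B2 Kd, and the low value was that of replicate 3. In Lamin A/C Kd LMNB2 was at 5.11, 5.31 and 5.18, below all controls (log2 fold change −0.36, adjusted p = 0.155 by limma). LMNB1 was at 4.09, 4.24 and 3.72 there, against 4.83, 4.81 and 5.38 in controls (−0.99, adjusted p = 0.168). In Lamin B2 Kd LMNB1 overlapped the controls, at 4.31, 5.32 and 3.46 (−0.64, adjusted p = 0.348). Of 9 colon epithelium markers, 8 were well above background on all 9 arrays, KRT8, KRT18, KRT20, CDX2, VIL1 and CDH1 among them. No fibroblast marker was well above background on all 9 arrays, while 4 of 6 leukocyte and 2 of 4 endothelium markers were, so a spot can pass this mark for a gene not expected in these cells. Summed over the 6 fibroblast markers, the signal relative to the array median was 1.13 to 1.38 in controls, 1.72 to 2.13 in Lamin A/C Kd and 1.07 to 1.94 in Lamin B2 Kd, against 7576 to 8327 for the epithelial markers in controls. PDGFRB was the fibroblast marker that changed in Lamin A/C Kd, and VIL1 the epithelial marker that changed in Lamin B2 Kd. Their part in the results was not tested.

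Each probe is a 60-base sequence, and the first 30 bases are given for all 4 ITGA2 probes, because their results differed, and for the ITGB8 probe that changed. Probes are named by the last part of their identifier. The files list all 20 probes as unmapped, so the exon or untranslated region each one reads was not placed. No 2 probes of 1 gene overlapped, and the longest run of bases that any such pair shared was 7.
ITGA2 probe P70161: CGAAGTACCAACAGGAgttataataggaag
ITGA2 probe P243329: atgttggaatgttatgggatgtaaacaatg
ITGA2 probe P178800: acacaaggcttataaaatagtaagatagta
ITGA2 probe P208076: agtccagggctatctgtactgtttacagaa
ITGB8 probe P759477: agaatatggtactttcacataatatactat
The capitals in probe P70161 mark 16 bases that it shares with the forward primer of the first ITGA2 primer pair the study designed for qRT-PCR.
ITGA2-A forward primer: aagcCGAAGTACCAACAGGA
The other ITGA2 primers shared no run of more than 8 bases with any ITGA2 probe. For its candidate genes, the study took the first primer pair from an array feature and the second from sequence absent from the array. It reports that the qRT-PCR changes of all candidates had the same general direction as on the arrays. The qRT-PCR values of ITGA2 were not available here. Of the 4 ITGA2 probes, P178800 had a stop codon in each of its 3 forward frames. P243329 and P208076 each had 1 frame without a stop codon, and P70161 had 2. By GC content the ITGB8 probe was at 30% and the ITGA2 probes between 26.7 and 38.3%.

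To be tested, a probe had to be well above background on each of the 3 arrays of a group compared, in 1 group or both, and it was said to rise or fall where limma's moderated test gave it a p value under 0.05 after adjustment over all probes tested. Of the 20 integrin probes, 16 probes of 9 genes could be tested against controls in both knockdowns. ITGB6, the subunit that pairs with ITGAV to activate latent TGF-beta, was the gene that could not, since its probe P154217 was well above background on 1 of the 9 arrays, Lamin B2 Kd replicate 2. Also untested were P178800 of ITGA2 and the ITGB8 probes P273599 and P929824, of which both ITGB8 probes were well above background on 0 arrays.

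In Lamin A/C Kd, ITGA3 and 1 probe of ITGA2 fell, and 1 probe of ITGB8 rose. That is 3 of 16 integrin probes (18.75%), against 9.15% of all 33131 probes tested. By gene, 2 of 9 fell and 1 of 9 rose, against 7.26% and 3.87% of all 21868 gene names. ITGA2 fell through P70161 alone, a probe well above background on all 3 controls and on 0 Lamin A/C Kd arrays. P70161 thus entered the test through the controls, where it is high, so its place in these counts is no support for a fall. With all 9 arrays required to be well above background, 2 integrin probes changed, ITGA3 and ITGB8 P759477. Over all probes that setting called 3171. The criterion of the study's methods, at least a 2-fold change with a p under 0.05, taken here as unadjusted, was met by 2 of 16 integrin probes on the measured values and by 2.32% of all probes. P70161 was 1 of those 2, although its fall is bounded only at about 1.91-fold or more. The members were chosen with earlier results known, so these shares describe them and are not a test. In Lamin B2 Kd no integrin probe passed the adjusted p, against 4.12% of 33535 probes, or by gene 0.683% that rose and 4.71% that fell. None met the 2-fold criterion there (1.98% of all probes). The median log2 fold change over the 16 probes was −0.01 in either knockdown, and over all probes tested it was −0.05 for Lamin A/C Kd and −0.14 for Lamin B2 Kd. Since both knockdowns were set against the same controls, their values are not independent of each other.

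**Figure D1:**
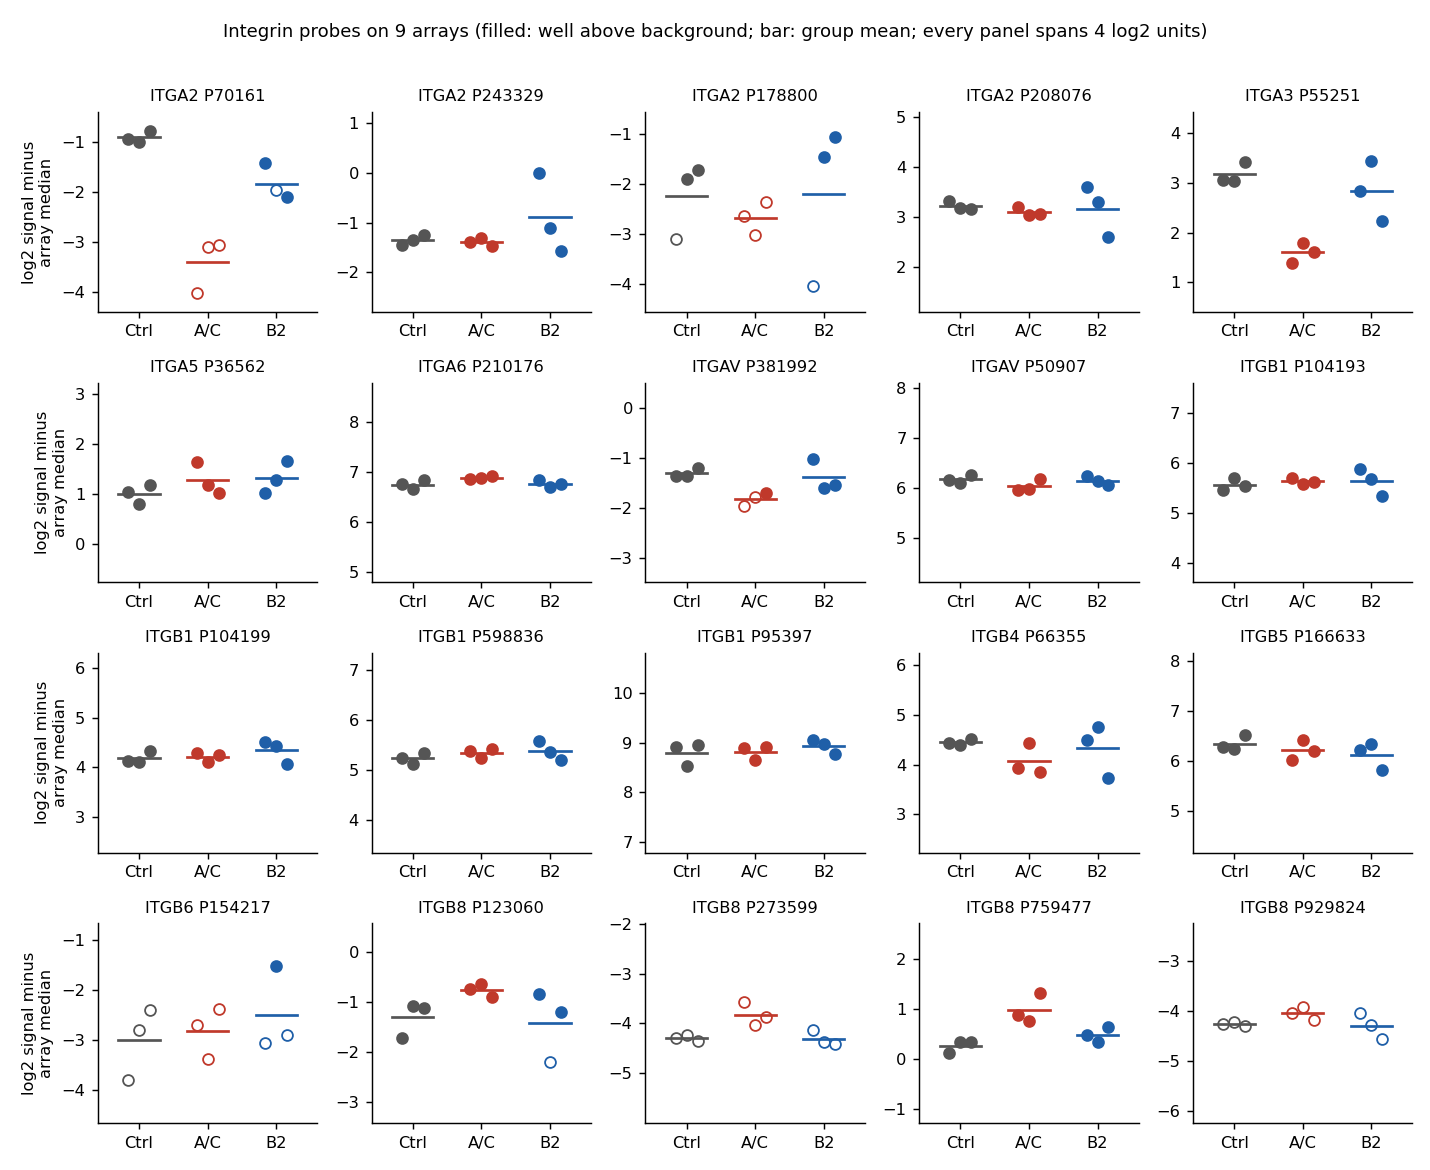
Level of every integrin probe on each array (y axis, log2 signal minus the array median) by group (x axis, Ctrl for Control, A/C for Lamin A/C Kd, B2 for Lamin B2 Kd), with replicates 1 to 3 from left to right, filled points well above background and bars at the group mean. ITGA3 and ITGA2 probe P70161 are lower in Lamin A/C Kd than in any control, while ITGA6, ITGB1 and the brighter ITGAV probe differ from controls by at most 0.16 in either knockdown.

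ITGA3, on chromosome 17, encodes the alpha subunit that pairs with ITGB1 to bind epithelial laminins. Its probe P55251 was at 3.06, 3.04 and 3.41 in controls, 1.39, 1.80 and 1.62 in Lamin A/C Kd, and 2.84, 3.44 and 2.24 in Lamin B2 Kd. All Lamin A/C Kd arrays lay below all controls and below all Lamin B2 Kd arrays, and the Lamin B2 Kd arrays spread over both sides of the controls. Expressed as intensities, the same probe read between 585 and 764 in controls and between 185 and 220 in Lamin A/C Kd. The level fell from 3.17 ± 0.21 (SD, n = 3) to 1.60 ± 0.21 (SD, n = 3), a log2 fold change of −1.57 (standard error 0.27, adjusted p = 0.00992 by limma), or 2.96-fold. Leaving out control replicate 3 gave −1.45 with an adjusted p of 0.0517, and leaving out any other array kept the adjusted p under 0.05.
For Lamin B2 Kd the log2 fold change of ITGA3 was −0.33 (95% interval −0.94 to 0.29, adjusted p = 0.460). It was −0.03 without Lamin B2 Kd replicate 3, the array with the lowest ITGA3 level in its group, and −0.63 without replicate 2.

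ITGA6, on chromosome 2, also binds laminin, with ITGB4 in hemidesmosomes or with ITGB1. Its level was 6.76, 6.67 and 6.84 in controls, 6.87, 6.89 and 6.93 in Lamin A/C Kd, and 6.85, 6.70 and 6.76 in Lamin B2 Kd. The Lamin A/C Kd arrays sat just above the controls without overlap, by a log2 fold change of 0.14 that did not pass (95% interval −0.10 to 0.38, adjusted p = 0.480). Lamin B2 Kd differed from controls by 0.01 (95% interval −0.22 to 0.25).
ITGB4, on chromosome 17, is the partner of ITGA6 whose long tail reaches the keratin filaments through plectin. Controls had 4.44, 4.39 and 4.51, Lamin A/C Kd 3.92, 4.44 and 3.86, and Lamin B2 Kd 4.49, 4.75 and 3.72. Replicates 1 and 3 of Lamin A/C Kd and replicate 3 of Lamin B2 Kd were below every control, and replicate 2 of either knockdown was not. The log2 fold changes of ITGB4 were −0.37 (95% interval −0.95 to 0.20, adjusted p = 0.434) for Lamin A/C Kd and −0.12 (95% interval −0.70 to 0.46) for Lamin B2 Kd, and the second was 0.18 without Lamin B2 Kd replicate 3.

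ITGA2, on chromosome 5, encodes the alpha subunit of a collagen receptor with ITGB1, and its 4 probes gave different results, although the difference between probes was not itself tested. Probe P70161 was at −0.94, −1.0 and −0.78 in controls, −4.03, −3.11 and −3.06 in Lamin A/C Kd, and −1.42, −1.97 and −2.11 in Lamin B2 Kd. Neither knockdown overlapped the controls, and Lamin A/C Kd lay below Lamin B2 Kd. The intensities behind these levels were low, between 35.4 and 43.1 in controls and between 4.3 and 7.9 in Lamin A/C Kd.
This probe was well above background on all 3 controls, on 0 Lamin A/C Kd arrays and on 2 Lamin B2 Kd arrays. Its fall in Lamin A/C Kd is therefore given as at least about 1.91-fold, with each Lamin A/C Kd array set at the dimmest signal still marked above background there, beside group means of −0.91 and −3.40 (adjusted p = 0.00160 by limma on the measured values). The bound is approximate, because a brighter spot can miss the mark. On Lamin B2 Kd replicate 2 this probe read 19.4 without the mark, and the dimmest marked signal was 17.6. The difference of the measured values was −2.49, and it became −0.51 with normexp background correction, which adds an offset of 50 to intensities of this size. Against controls, Lamin B2 Kd had a log2 fold change of −0.93 (95% interval −1.54 to −0.31), which did not pass in limma after adjustment (adjusted p = 0.0909), although its unadjusted p was under 0.05.

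The other ITGA2 probes did not pass in either knockdown. Probe P208076 had levels of 3.33, 3.18 and 3.16 in controls, 3.20, 3.05 and 3.06 in Lamin A/C Kd, and 3.60, 3.30 and 2.61 in Lamin B2 Kd. The groups overlapped, with log2 fold changes of −0.12 (95% interval −0.62 to 0.38, adjusted p = 0.816) in Lamin A/C Kd and −0.05 (95% interval −0.56 to 0.45, adjusted p = 0.889) in Lamin B2 Kd. The P208076 interval in Lamin A/C Kd does not reach the 1.91-fold fall that is the approximate bound for P70161. That bound has no interval of its own, so no conclusion on a difference between the probes is drawn from it.
On probe P243329 the levels were −1.45, −1.34 and −1.25 in controls, −1.38, −1.31 and −1.48 in Lamin A/C Kd, and 0.00, −1.10 and −1.58 in Lamin B2 Kd. Lamin A/C Kd overlapped the controls (log2 fold change −0.04, 95% interval −0.78 to 0.69, adjusted p = 0.962). Replicate 1 of Lamin B2 Kd was high, and the log2 fold change of 0.45 (95% interval −0.29 to 1.20, adjusted p = 0.404) became 0.01 without that array.
Probe P178800 was untested, with −3.10, −1.90 and −1.73 in controls, −2.64, −3.03 and −2.36 in Lamin A/C Kd, and −4.06, −1.46 and −1.07 in Lamin B2 Kd. It was well above background on 2 controls, 0 Lamin A/C Kd arrays and 2 Lamin B2 Kd arrays, and its groups overlapped.

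**Figure D2:**
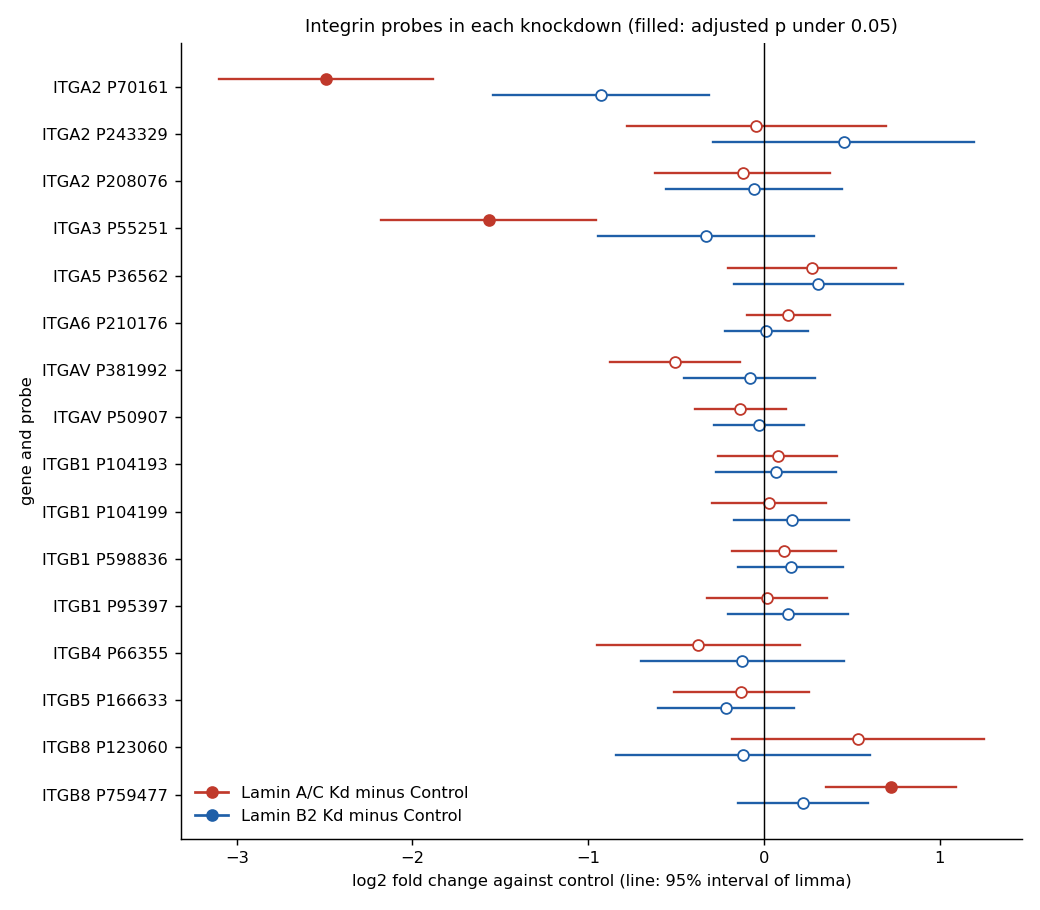
Log2 fold change of the 16 tested integrin probes (x axis, each knockdown minus Control, with limma's 95% interval as the line) by probe (y axis), filled where the adjusted p is under 0.05. The filled points are ITGA3, ITGA2 P70161 and ITGB8 P759477, all in Lamin A/C Kd, and the ITGA2 P70161 point there rests on signals that were not well above background.

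ITGA5, on chromosome 12, is the alpha subunit of the main fibronectin receptor. It was at 1.03, 0.79 and 1.17 in controls, 1.64, 1.17 and 1.02 in Lamin A/C Kd, and 1.01, 1.27 and 1.66 in Lamin B2 Kd. The groups overlapped, with log2 fold changes of 0.28 (95% interval −0.20 to 0.75) and 0.31 (95% interval −0.17 to 0.79), neither of which passed.
ITGAV, on chromosome 2, pairs with several beta subunits to bind ligands such as vitronectin and latent TGF-beta. Its brighter probe P50907 was at 6.15, 6.10 and 6.25 in controls, 5.96, 5.97 and 6.17 in Lamin A/C Kd, and 6.23, 6.13 and 6.06 in Lamin B2 Kd. The groups overlapped, and the log2 fold change of P50907 was −0.13 (95% interval −0.39 to 0.12) in Lamin A/C Kd and −0.03 (95% interval −0.29 to 0.23) in Lamin B2 Kd.
The dim ITGAV probe P381992 was at −1.35, −1.36 and −1.21 in controls, −1.96, −1.78 and −1.70 in Lamin A/C Kd, and −1.02, −1.60 and −1.54 in Lamin B2 Kd. Lamin A/C Kd lay below all controls, but 1 of its 3 arrays was well above background. The log2 fold change of −0.51 (95% interval −0.88 to −0.13, adjusted p = 0.0929) did not pass with all 9 arrays, and it passed without Lamin B2 Kd replicate 1 (adjusted p = 0.0347) or without Lamin B2 Kd replicate 3 (adjusted p = 0.0498), arrays that enter this comparison through the shared estimate of the spread. Lamin B2 Kd stood at −0.08 (95% interval −0.45 to 0.29).

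ITGB1, on chromosome 10, is the common partner of ITGA2, ITGA3 and ITGA5. None of its 4 probes passed in either knockdown. For Lamin A/C Kd the log2 fold changes lay between 0.02 and 0.11, with 95% intervals inside −0.32 to 0.42. For Lamin B2 Kd they lay between 0.07 and 0.16, with intervals inside −0.27 to 0.48. The brightest of them, P95397, was at 8.91, 8.53 and 8.96 in controls, 8.88, 8.65 and 8.92 in Lamin A/C Kd, and 9.06, 8.97 and 8.78 in Lamin B2 Kd, and all 3 groups overlapped. Over all 9 arrays P104193 ranged from 5.34 to 5.89, P104199 from 4.08 to 4.51 and P598836 from 5.11 to 5.57. With normexp background correction, P104193 passed after Lamin A/C Kd with 0.29 (adjusted p = 0.0340), and P104193, P104199 and P598836 passed after Lamin B2 Kd with 0.38, 0.35 and 0.36.
ITGB5, on chromosome 3, forms a vitronectin receptor with ITGAV. It was at 6.28, 6.23 and 6.51 in controls, 6.02, 6.41 and 6.19 in Lamin A/C Kd, and 6.22, 6.33 and 5.80 in Lamin B2 Kd. The groups overlapped, with log2 fold changes of −0.13 (95% interval −0.51 to 0.26) and −0.22 (95% interval −0.61 to 0.17).
ITGB6, on chromosome 2, had signals on its single probe that ranged from −3.81 to −2.40 in controls, −3.38 to −2.38 in Lamin A/C Kd and −3.06 to −1.52 in Lamin B2 Kd, so that its level was not measurable here.

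ITGB8, on chromosome 7, pairs with ITGAV and, like ITGB6, binds latent TGF-beta. Probe P759477 was at 0.12, 0.35 and 0.34 in controls, 0.89, 0.77 and 1.32 in Lamin A/C Kd, and 0.49, 0.34 and 0.65 in Lamin B2 Kd. All Lamin A/C Kd arrays lay above all controls and above all Lamin B2 Kd arrays. The level rose from 0.27 ± 0.13 (SD, n = 3) to 0.99 ± 0.29 (SD, n = 3), a log2 fold change of 0.72 (standard error 0.16, adjusted p = 0.0280 by limma), or 1.65-fold.
That call depended on single arrays: it was lost without control replicate 1 (0.65, adjusted p = 0.117), 2 (0.76, adjusted p = 0.0764) or 3 (0.75, adjusted p = 0.0879), and without Lamin A/C Kd replicate 1 (0.77, adjusted p = 0.0728) or 3 (0.56, adjusted p = 0.0693), always with the same sign. Leaving out a Control or Lamin A/C Kd array also cut the calls over all probes, from 3030 to between 964 and 1772. The ITGB8 call was also lost with no filter on detection (adjusted p = 0.0751) and with no moderation of the variances (adjusted p = 0.0559), and in the authors' table, which joins probes of a gene, ITGB8 had 0.65 with an adjusted p of 0.0914 in limma. Lamin B2 Kd had a log2 fold change of 0.22 (95% interval −0.15 to 0.59, adjusted p = 0.414).
The second detected ITGB8 probe, P123060, was at −1.71, −1.07 and −1.11 in controls, −0.74, −0.64 and −0.90 in Lamin A/C Kd, and −0.84, −2.20 and −1.20 in Lamin B2 Kd. Lamin A/C Kd was again above all controls, by 0.54 (95% interval −0.18 to 1.25, adjusted p = 0.355), which did not pass, and Lamin B2 Kd overlapped them (−0.12, 95% interval −0.84 to 0.60). Over all 9 arrays P273599 ranged from −4.42 to −3.57 and P929824 from −4.57 to −3.93, none of it well above background.

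**Figure D3:**
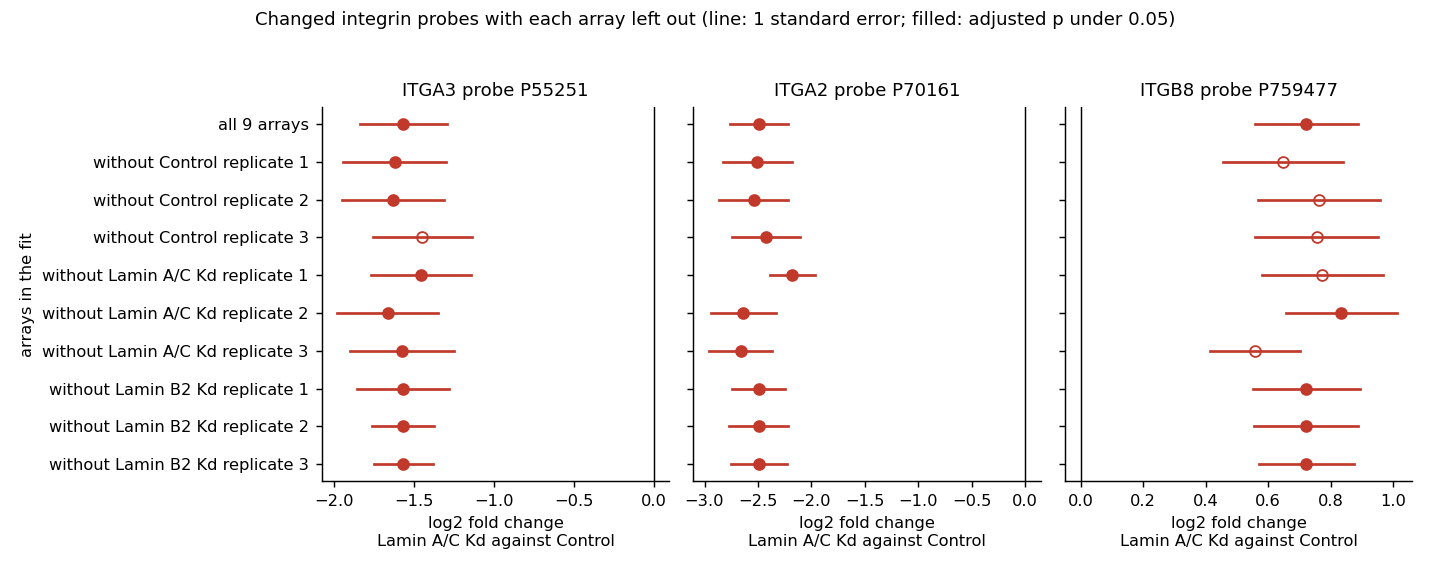
Log2 fold change in Lamin A/C Kd against Control (x axis, line 1 standard error) of the 3 integrin probes that changed, with all 9 arrays and with each array left out in turn (y axis), filled where the adjusted p is under 0.05. ITGA2 P70161 stays filled throughout, ITGA3 is open without control replicate 3, and ITGB8 P759477 is open in 5 of the 9 fits that leave out an array. The P70161 values rest on Lamin A/C Kd signals that were not well above background on any array, which leaving out arrays cannot change. That probe was not tested where all 9 arrays had to be well above background.

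Between the knockdowns, 15 integrin probes could be tested, and ITGA3 was the 1 that differed, against 15.6% of all 33134 probes. It was lower in Lamin A/C Kd than in Lamin B2 Kd by a log2 difference of −1.24 (standard error 0.27, adjusted p = 0.0157 by limma), or 2.36-fold, and it also met the 2-fold criterion, as did 4.07% of all probes. The ITGA3 difference was −1.54 (adjusted p = 0.00284) without Lamin B2 Kd replicate 3, whereas without Lamin A/C Kd replicate 1 or 3 the adjusted p was 0.0624 and 0.0547. ITGB8 P759477 was higher in Lamin A/C Kd than in Lamin B2 Kd by 0.50 (95% interval 0.13 to 0.87), but its adjusted p of 0.0721 did not pass. ITGA2 P70161 was not tested here, because neither knockdown had it well above background on all 3 arrays.

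The 3 Lamin B2 Kd arrays spread more widely on the integrins than the Lamin A/C Kd arrays. Over the 16 probes tested in Lamin A/C Kd, the median difference from the control mean was 0.24, 0.10 and −0.17 on Lamin B2 Kd replicates 1, 2 and 3, compared with 0.03, 0.00 and 0.01 on the Lamin A/C Kd arrays. Among the tested probes, replicate 3 had the lowest level of its group for ITGA3, ITGB4, ITGB5, all 4 ITGB1 probes, ITGAV P50907 and ITGA2 P70161, P243329 and P208076, and it was also the array on which LMNA was low. It had the highest level of its group for ITGA5 and ITGB8 P759477, and for the untested ITGA2 P178800. The part of that slide or of the missing detrending in these values was not tested. Shifting each array by its 75th percentile moved the median over all probes in Lamin B2 Kd from −0.14 to 0.06 and that over the integrin probes to 0.19, and no integrin probe passed with it.

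Genes that work with these subunits were read from 4 lists in the same fits. Of 16 integrin subunits of other cell types or pairings, such as ITGA1 and ITGB2, 10 were tested and 0 passed the adjusted p of limma in either knockdown. Of 21 tested ligands, 2 rose and 4 fell after Lamin A/C Kd, as did 1 and 2 of 28 tested adaptors and kinases at integrin tails, and 1 and 2 of 15 tested hemidesmosome and lateral partners. After Lamin B2 Kd 0 of these rose, and 3 ligands, 2 adaptors and 1 hemidesmosome or lateral partner fell. Over all gene names tested, the shares that rose were 3.87% after Lamin A/C Kd and 0.683% after Lamin B2 Kd, and the shares that fell were 7.26% and 4.71%. The fall of 2 of 28 adaptors was thus near the share over all genes. The median log2 fold changes over the probes of the ligands were −0.17 for Lamin A/C Kd and −0.28 for Lamin B2 Kd, those of the adaptors −0.27 and −0.14, and those of the hemidesmosome and lateral partners −0.01 and −0.19. The 12 genes in Lamin A/C Kd were 4 to 30 when an array was left out, with 30 without Lamin B2 Kd replicate 3 and 4 without control replicate 1 or 2. The calls over all probes moved with them. From 3030 they went to 7034 without Lamin B2 Kd replicate 3, and to 964 and 1156 without control replicates 1 and 2. The 6 genes in Lamin B2 Kd were between 1 and 8, with 1 without any of the controls. Over all probes the 1381 calls there became 63 and 151 without control replicates 1 and 2.

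Among ligands in Lamin A/C Kd, FN1 (fibronectin, the ligand of ITGA5 with ITGB1) was at −1.26, −1.31 and −1.0 on its detected probe P119745, against −0.23, −0.18 and 0.19 in controls and 0.59, 0.53 and 0.37 in Lamin B2 Kd. As a log2 fold change, Lamin A/C Kd was at −1.12 (adjusted p = 0.00415 by limma), a fall, and the 3 groups did not overlap. For Lamin B2 Kd it was 0.57 (adjusted p = 0.0690), and the knockdowns differed by −1.69 (adjusted p = 0.000389).
CYR61, a matricellular ligand of ITGAV and ITGA6, fell in Lamin A/C Kd on each of its 3 probes, by log2 fold changes of −0.99, −1.02 and −1.13 (adjusted p between 0.00776 and 0.0123). CTGF, a relative of CYR61 (−0.65, adjusted p = 0.0297), and THBS1, thrombospondin 1 (−0.61 and −0.51 on its probes P206212 and P142118), were the other ligands that fell. The ligands that rose were LAMC1, the laminin gamma 1 chain (0.75, adjusted p = 0.0110), and TGFB3, a latent growth factor that ITGAV pairs bind (probe P88404 of 2, 0.75, adjusted p = 0.0358).

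The ligands that fell in Lamin B2 Kd were TNC, tenascin C, on 3 probes (−0.65, −0.87 and −1.05, adjusted p between 0.0192 and 0.0496), NPNT, nephronectin (−0.69, adjusted p = 0.0225), and LTBP1, which stores latent TGF-beta in the matrix (−0.59, adjusted p = 0.0388). NPNT was at 3.20, 3.19 and 2.96 in Lamin B2 Kd, below 3.77, 3.74 and 3.91 in controls and 4.18, 4.07 and 3.95 in Lamin A/C Kd, without overlap. The difference of NPNT between the knockdowns was 0.95 (adjusted p = 0.00162).

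Of the adaptors, the kinase SRC rose in Lamin A/C Kd from 1.42, 1.38 and 1.70 in controls to 2.29, 3.01 and 2.96 (log2 fold change 1.25, adjusted p = 0.0330), and Lamin B2 Kd had 1.87, 1.78 and 2.85 (0.67, adjusted p = 0.215). ITGB1BP1, which binds the tail of ITGB1 (−0.79, adjusted p = 0.00749), and VCL, vinculin (probe P202280 of 2, −0.43, adjusted p = 0.0443), fell in Lamin A/C Kd. FLNA, a crosslinker of actin that binds beta tails, met the 2-fold criterion on probe P96568 of 3 there (−1.23) without passing the adjusted p (0.112).
The adaptors that fell in Lamin B2 Kd were TLN2, a talin, on probe P347566 (−1.09, adjusted p = 0.00684; −1.28 with an adjusted p of 0.0842 on its other probe), and TNS3, a tensin (−0.53, adjusted p = 0.0395). TLN2 P347566 was at 0.84, 0.97 and 0.71 in Lamin B2 Kd, against 1.95, 1.82 and 2.02 in controls and 2.08, 2.23 and 2.08 in Lamin A/C Kd, and the knockdowns differed by 1.29 (adjusted p = 0.000421). TLN1 met the 2-fold criterion alone, on probe P9166 of 2 (−1.24, adjusted p = 0.111), and so did the scaffold NEDD9 (−1.07, adjusted p = 0.180).

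At the hemidesmosome, COL17A1, the transmembrane collagen that binds ITGB4 and ITGA6, was at 0.07, 0.29 and 0.13 in Lamin A/C Kd on probe P501010 of 2, against 0.98, 1.38 and 1.31 in controls and 1.24, 1.27 and 1.0 in Lamin B2 Kd. The fall in Lamin A/C Kd was −1.06 as a log2 fold change (adjusted p = 0.00424 by limma), whereas Lamin B2 Kd overlapped the controls (−0.05, adjusted p = 0.847). The knockdowns differed by −1.01 (adjusted p = 0.00249). The tetraspanin TSPAN8 also fell after Lamin A/C Kd (−0.63, adjusted p = 0.0150), while DST, dystonin, rose on 1 of its 6 probes, P42530 (0.83, adjusted p = 0.0210). PLEC1, plectin, had a log2 fold change of −1.01 after Lamin A/C Kd on 1 of its 3 probes, which met the 2-fold criterion with an adjusted p of 0.109. CAV1, a caveolin, fell in Lamin B2 Kd on probe P134454 of 2 (−0.44, adjusted p = 0.0483).

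**Figure D4:**
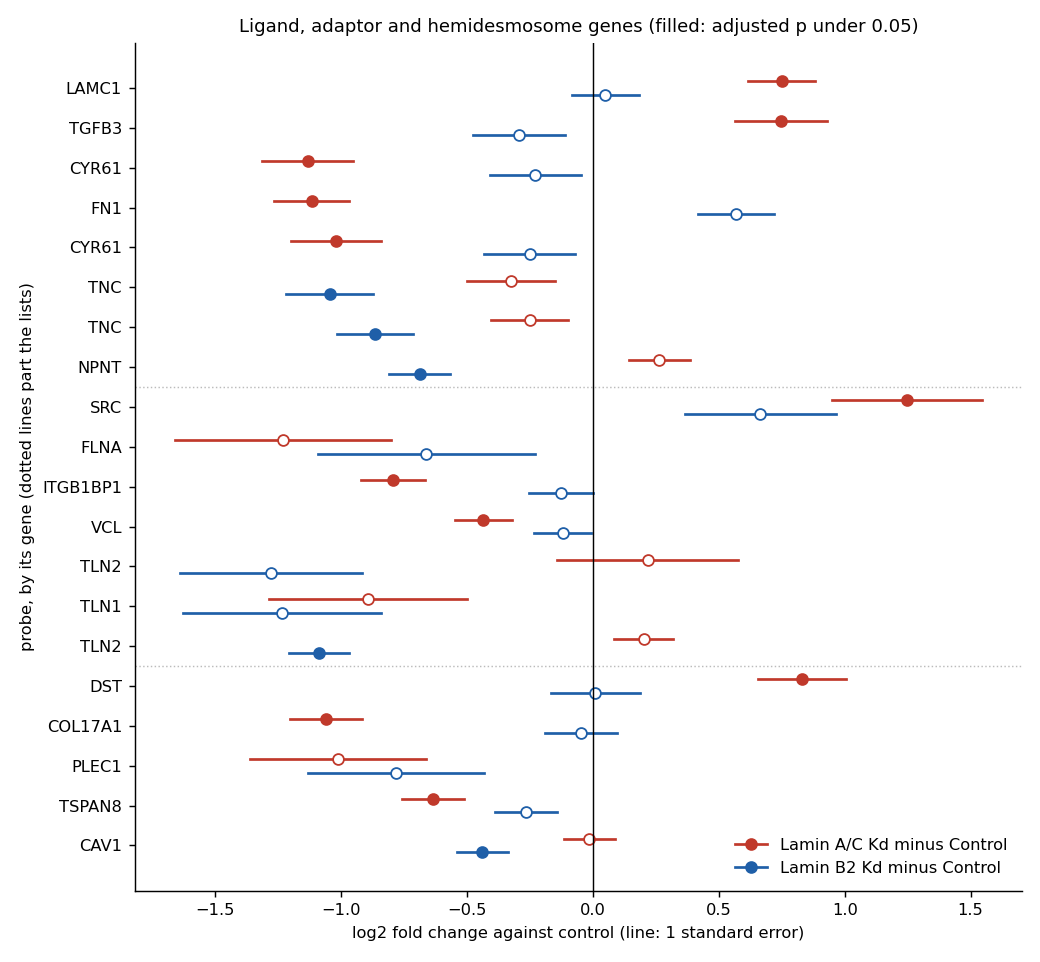
Log2 fold change (x axis, each knockdown minus Control, line 1 standard error) of the probes of ligand, adaptor and hemidesmosome genes with the largest rises and falls (y axis, a gene with several such probes is repeated), filled where the adjusted p is under 0.05. FN1, CYR61 and COL17A1 are filled and below −1 in Lamin A/C Kd, and TNC, NPNT and 1 of the 2 TLN2 probes are filled in Lamin B2 Kd.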

How the data were processed

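RNA of 9 DLD1 cultures was hybridized to 1-color Agilent arrays. The authors deposited Feature Extraction output per array (version 10.5 per the labels, 10.7.3.1 per the file headers), whose intensities are background-subtracted and, on 8 of 9 arrays, multiplicatively detrended. A second deposited file gives log2 values after a 50th percentile shift and centering of each row. It joins the probes of a gene, and it served only as an alternative. Its Lamin B2 Kd set numbers differ from the sample titles, so these columns were taken as a group.

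Probes were matched to the integrins by the gene name in the files. The log2 intensity minus the array's 50th percentile was averaged over the non-outlier spots of a probe, and no spot was saturated. The R 4.3.3 package limma 3.58.1 was fitted over all 9 arrays and all probes tested, with Benjamini-Hochberg adjustment. The study's methods name 3 independent biological replicates and no test for the arrays. Depth here is signal over background, and 3 arrays per group limit the precision. The limma fit of Lamin A/C Kd against Control was tested on simulated arrays with known changes. The members and lists were chosen with earlier results of these data known. The text names all integrin probes, LMNA, LMNB2, and from each related list up to 3 rises and 3 falls per knockdown that passed either criterion. CTGF, THBS1, LTBP1, TNS3, NEDD9, LMNB1 and the marker PDGFRB were named after their values were seen. Chromosomes came from RefSeq (GRCh38.p14) by gene symbol.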

Additional observations from a re-analysis of the deposited data

Results flagged for a closer look

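ITGA3 probe P55251 responded differently in the knockdowns. Its level in Lamin A/C Kd minus that in Lamin B2 Kd was −1.24 on the log2 scale, tested by limma as a contrast of its own (adjusted p = 0.0157). All 3 Lamin A/C Kd arrays were below all 3 Lamin B2 Kd arrays, with group means of 1.60 and 2.84. The array on the separate slide, Lamin B2 Kd replicate 3, had the lowest ITGA3 level of its group, and without it the difference was −1.54. The adjusted p was 0.0624 without Lamin A/C Kd replicate 1, 0.0547 without Lamin A/C Kd replicate 3 and 0.0553 with no moderation of the variances.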

How the results depend on the processing

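No change of an integrin probe that passed turned its sign under any setting tried. Over all tested probes, passing or not, the sign turned in 8 of 301 values for Lamin A/C Kd, 27 of 301 for Lamin B2 Kd and 23 of 283 between the knockdowns. Of 306 values recomputed for Lamin A/C Kd, 8 lost and 6 gained a pass of the adjusted p, and of 306 for Lamin B2 Kd 3 gained one. Of 288 between the knockdowns, 3 lost and 3 gained one. In Lamin A/C Kd the authors' table, read by gene, called 1 gene in place of 3, ITGA3 (−1.58, adjusted p = 0.0329), and ITGA2 there, joined over its probes, was at −0.20. The 3 probes that changed in Lamin A/C Kd were 1 to 4 when an array was left out, with 1, ITGA2 P70161, without control replicate 3. The genes were also 1 to 4. In Lamin B2 Kd, 1 probe passed a 1.5-fold criterion, and with normexp background correction 3 probes of 1 gene, ITGB1, passed. Leaving out any array gave 0 there. Between the knockdowns 2 probes of 2 genes passed with the 75th percentile shift, with no filter on detection, with the slide as a random block and with array weights, and 0 with no moderation. Leaving out an array gave 0 to 2 probes and 0 to 2 genes, with 0 without Lamin A/C Kd replicate 1 or 3 and 2 without Lamin B2 Kd replicate 2, where ITGA2 P70161 became testable.

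With the replicate number as a block, 3 probes changed in Lamin A/C Kd, 0 in Lamin B2 Kd and 1 between the knockdowns, as without it, while the related genes went from 12 to 7 and from 6 to 1. Deviations of arrays with the same number correlated between −0.05 and 0.10, so the numbers gave no sign of pairing. Over all probes the calls were 1644 with the block against 3030 in Lamin A/C Kd, 248 against 1381 in Lamin B2 Kd and 3587 against 5160 between them.

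For the related genes, settings added after the data were seen gave 7 genes in Lamin A/C Kd with no filter, 33 with only the 2 groups compared, 25 with the slide as a random block, 34 with array weights, and 4 to 30 with an array left out (4 without control replicate 1 or 2, 5 without either control replicate 3 or replicate 2 of Lamin A/C Kd, 6 without replicate 1 of Lamin A/C Kd, 30 without Lamin B2 Kd replicate 3). In Lamin B2 Kd they gave 1 with no filter, 0 with only the 2 groups compared, 10 with array weights, and 1 to 8 with an array left out (1 without any control, 3 without Lamin A/C Kd replicate 1 or 2). The calls over all probes moved in the same fits. From 3030 in Lamin A/C Kd they went to 1425 with no filter and 6839 with only the 2 groups compared. They were 6329 there with the slide as a random block and 8222 with array weights. From 1381 in Lamin B2 Kd they went to 273 with no filter, 14 with only the 2 groups compared and 2441 with array weights. Their ranges were 964 to 8222 in Lamin A/C Kd, 14 to 2441 in Lamin B2 Kd and 2591 to 7618 between the knockdowns, and the causes were not tested.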
